A study of Mus musculus with 2 samples.

Results

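The genes described here are 10 genes of fat cell formation and lipid handling, measured in fibro-adipogenic progenitors (FAPs) of mouse muscle. They are the transcription factors Pparg, Cebpa, Cebpb, Cebpd and Zfp423, the lipid uptake genes Lpl, Cd36 and Fabp4, the lipid droplet gene Plin2 and the adipokine gene Adipoq. The list was given by name. Of the 10 genes, 9 were among the 27998 genes of the feature list used, and Cebpd was not analysed here. FAPs were the barcodes with at least 1 unique molecular identifier (UMI, 1 tag per captured RNA molecule) of Pdgfra and at least 50 UMIs of Dcn. This rule took 2339 of 5159 barcodes in quadriceps (45.3%) and 2010 of 2499 in diaphragm (80.4%).

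Single-cell RNA of viable mononuclear cells of C57BL/6J mice was measured in 1 droplet library from the quadriceps of the limb and 1 from the diaphragm, the muscle of breathing. Neither the age of the animals nor any treatment was given. Cells of 5 mice per muscle were pooled after collagenase and dispase digestion, so tissue, library and pool of animals cannot be told apart and no test between tissues was possible. All intervals below are 95% intervals that cover counting error only.

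FAPs are Pdgfra-expressing connective tissue cells that lie between muscle fibres. They support satellite cells during repair and can become fat cells when muscle degenerates. In fat cell formation C/EBP-beta and C/EBP-delta act early and switch on PPAR-gamma and C/EBP-alpha, which in turn drive the genes of lipid uptake and storage, while Zfp423 marks cells committed to the fat lineage.

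The promoters of Cebpa and Cebpb are shown because they are the C/EBP factors measured here, and because the level of Cebpb moved with immediate early genes. RefSeq promoter entries were found for 7 of the 10 genes on build GRCm38.p6, and Lpl, Fabp4 and Cebpd were without one. The lines give the 250 bases before the start of Cebpa at chr7:35119043-35119292 and of Cebpb at chr2:167688665-167688914, both on the + strand. Capitals mark a TATA box (TATAAA) in Cebpa, 30 to 25 bases before the start. In Cebpb they mark 3 cAMP response element half-sites (TGACG, or CGTCA on the other strand), whose first bases lie 180, 53 and 7 bases before the start.
Cebpa: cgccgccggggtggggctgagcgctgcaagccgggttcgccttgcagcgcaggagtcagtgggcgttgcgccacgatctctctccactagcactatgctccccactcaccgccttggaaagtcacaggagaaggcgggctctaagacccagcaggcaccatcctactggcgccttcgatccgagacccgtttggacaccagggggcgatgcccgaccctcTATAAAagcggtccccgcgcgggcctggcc
Cebpb: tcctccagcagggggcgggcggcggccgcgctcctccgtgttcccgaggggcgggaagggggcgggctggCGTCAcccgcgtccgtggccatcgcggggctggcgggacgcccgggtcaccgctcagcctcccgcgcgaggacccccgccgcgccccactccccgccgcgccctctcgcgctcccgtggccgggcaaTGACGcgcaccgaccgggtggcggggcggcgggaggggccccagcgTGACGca
Over 32851 RefSeq promoters of the same length, 12.4% held TATAAA and 17.8% held TGACG on either strand, with no overlap between the motifs in the lines above. CCAAT, found in 33.8% of promoters, and TTGCGCAA, found in 0.164%, were searched on both strands and had no match in either line. A match is only a description of these letters.

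Lpl, which encodes the lipase that frees fatty acids from circulating lipoproteins, was the most abundant of the genes in FAPs. Levels are UMIs of a gene per 1000000 UMIs of the class (CPM). Each UMI stands for 1 molecule tagged at its end, so levels of different genes are comparable without a length correction. Lpl reached 788 CPM in quadriceps FAPs (20935 UMIs) and 1119 CPM in diaphragm FAPs (29060 UMIs). The median FAP held 5 Lpl UMIs in quadriceps and 12 in diaphragm, and 92.3% and 99.4% of FAPs held at least 1. Cebpb, an early C/EBP factor that also responds to stress and inflammation, followed with 249 and 437 CPM.

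Plin2, which coats lipid droplets in many cell types, had 60.7 CPM in quadriceps and 38.3 CPM in diaphragm FAPs. Zfp423, a zinc finger factor of preadipocytes, had 508 UMIs in each library, or 19.1 and 19.6 CPM. Cebpa, which keeps fat cells differentiated, had 14.0 and 19.9 CPM. These 5 genes kept 1 order in both tissues except for Cebpa and Zfp423, whose intervals overlapped in diaphragm (18.3 to 21.7 CPM for Cebpa, 17.9 to 21.3 CPM for Zfp423).

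The other 4 genes were rare. Fabp4, the fatty acid binding protein of fat cells and capillary endothelium, had 5.61 CPM (149 UMIs) and 1.12 CPM (29 UMIs). Pparg, the nuclear receptor that commits cells to the fat lineage, had 58 UMIs in quadriceps, or 2.18 CPM, and 39 in diaphragm, or 1.5 CPM. Cd36, a fatty acid translocase, had 32 UMIs and 1 UMI. Adipoq, which encodes the hormone adiponectin of mature fat cells, had 0 of 2339 quadriceps FAPs with a UMI, which allows a share of up to 0.128%, and 1 UMI in diaphragm. In quadriceps the intervals of Pparg (1.66 to 2.82 CPM) and Fabp4 (4.75 to 6.59 CPM) did not meet, whereas in diaphragm those of Pparg (1.07 to 2.05 CPM) and Fabp4 (0.748 to 1.60 CPM) overlapped.

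Genes of mature fat cells were close to absent. Of 10 such genes listed besides Adipoq (among them Plin1, Cidec, Lep, Retn and Cfd), 6 had no UMI in quadriceps FAPs and 6 had none in diaphragm FAPs, and 8 and 9 of the 10 were at or under 3 UMIs. The exceptions were Slc2a4, the insulin-responsive glucose transporter, with 181 and 24 UMIs, and Acvr1c with 5 UMIs in quadriceps. Of the 3632 Slc2a4 UMIs over all quadriceps barcodes, smooth muscle cells held 3264, and without the FAPs that held at least 20 UMIs of other classes' markers Slc2a4 had 30 and 24 UMIs. Adipoq had 1 UMI in all barcodes of each library.

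**Figure D1:**
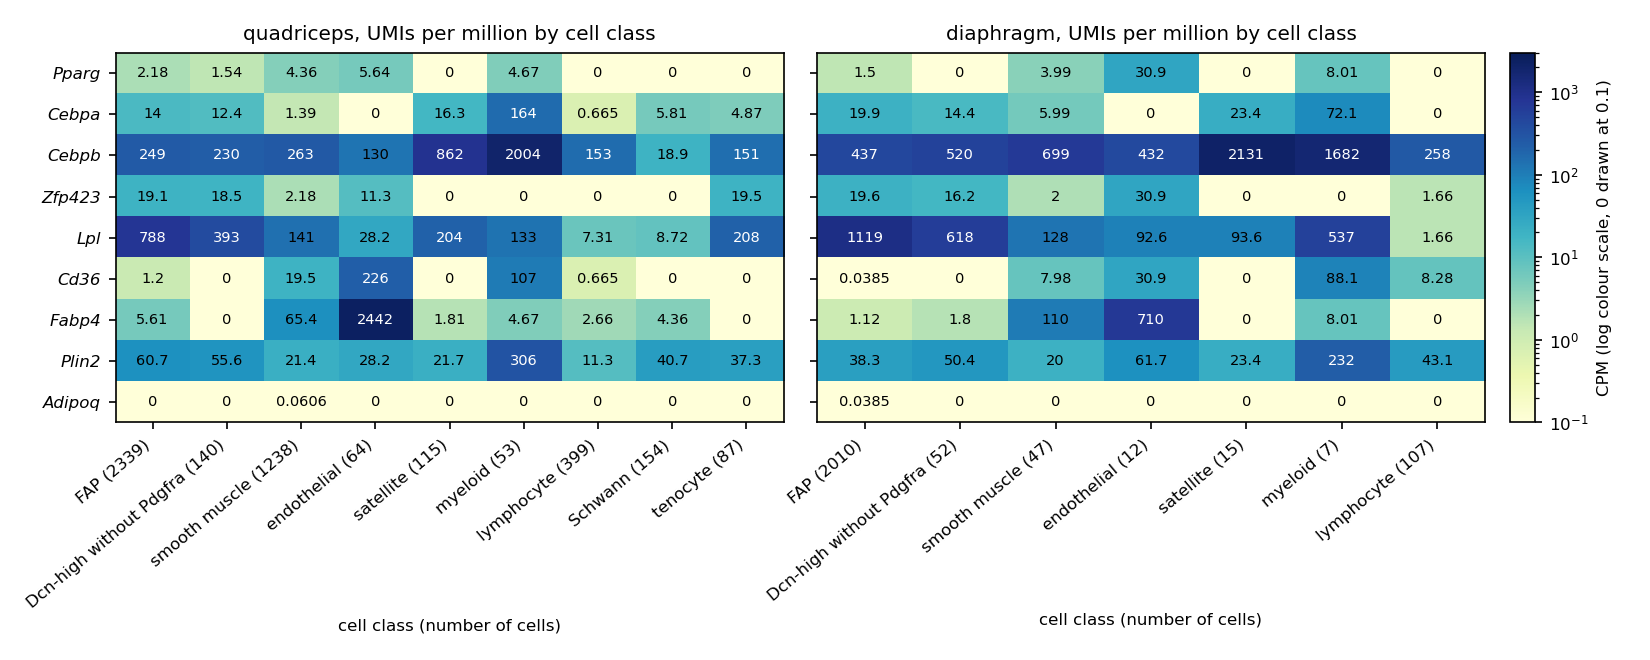
Levels of the 9 measured genes in each cell class of quadriceps (left) and diaphragm (right), in CPM (printed in each cell, log colour scale), for classes of at least 7 cells with the number of cells in brackets. Lpl is high in FAPs and in Dcn-high barcodes without Pdgfra, Zfp423 is at similar levels in FAPs, in these barcodes and in quadriceps tenocytes, Fabp4 is highest in endothelial cells at 2442 and 710 CPM, and Cebpb is high in myeloid and satellite cells.

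The rows of the plot by cell class separated the genes into those led by FAPs and those led by other cells. Other classes were named from marker lists, as barcodes that held a UMI of at least 50% of the markers of 1 class alone. Mitochondrial UMIs count in the class totals. In quadriceps their median share was 10.4% in endothelial cells and 17.4% in smooth muscle cells, against 3.97% in FAPs. Lymphocytes (399 cells in quadriceps and 107 in diaphragm), which should lack most of these genes, gave the level that free RNA can produce. Lpl in them was 7.31 CPM in quadriceps and 1.66 CPM in diaphragm. After thinning each cell to 1000 UMIs, 46.8% of quadriceps FAPs and 1.02% of lymphocytes held an Lpl UMI, against 61.1% and 0 of 106 in diaphragm, which allows up to 2.83%. Lpl was 5.61-fold higher in FAPs than in smooth muscle cells of quadriceps (5.37 to 5.85) and 3.86-fold higher than in satellite cells (3.21 to 4.68). Dcn-high barcodes without Pdgfra had 393 CPM in quadriceps and 618 CPM in diaphragm, the 7 myeloid cells of diaphragm 537 CPM and its 2 tenocytes 1741 CPM.

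Zfp423 was shared by FAPs and other connective tissue cells. It was 8.77-fold higher in FAPs than in smooth muscle of quadriceps (6.25 to 12.7) and had no UMI in 399 lymphocytes, 115 satellite cells or 53 myeloid cells there, which for lymphocytes allows a share of up to 0.752%. The 87 tenocytes of quadriceps had 19.5 CPM, a level whose interval (10.1 to 34.0) took in that of FAPs. In diaphragm the unassigned barcodes held 12 UMIs of Zfp423, a level whose interval (10.3 to 34.9 CPM) took in that of FAPs, and the 12 endothelial cells held 1 UMI. Cebpa was 10.1-fold higher in FAPs than in quadriceps smooth muscle (6.60 to 16.1), but myeloid cells exceeded FAPs 11.7-fold (8.91 to 15.1) with 164 CPM.

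Cebpb and Plin2 were broad. Cebpb was higher in myeloid cells (2004 CPM in quadriceps, 1682 CPM in diaphragm) and satellite cells (862 and 2131 CPM) than in FAPs, and lymphocytes had 153 and 258 CPM. Plin2 was 5.04-fold higher in quadriceps myeloid cells than in FAPs (4.19 to 6.03). In diaphragm FAPs it was not above the lymphocyte level of 43.1 CPM, and after thinning 3.13% of these FAPs and 4.72% of lymphocytes held a UMI.

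Fabp4 and Cd36 were highest in other cells. In quadriceps endothelial cells Fabp4 was 435-fold higher than in FAPs (361 to 528) and Cd36 187-fold higher (115 to 308), from 433 and 40 UMIs in 64 cells. Smooth muscle also had more, with 65.4 CPM of Fabp4 and 19.5 CPM of Cd36 in quadriceps. A UMI of Fabp4 was seen in 3.16% of quadriceps FAPs against 1.00% of lymphocytes (median depths 10782 and 3507 UMIs), and after thinning in 0.428% against 0 of 392, which allows up to 0.765%. As a level, quadriceps FAPs had 2.11-fold the Fabp4 of lymphocytes (0.807 to 7.84), an interval that took in 1. The 1.09% in diaphragm FAPs was under the 2.80% that 0 of 107 lymphocytes allows, so that it could not be told from free RNA at this depth. Of the 29 Fabp4 UMIs in diaphragm FAPs, 12 lay in the Slpi Has1 subcluster, which had 4.73-fold the level of the other FAPs (2.06 to 10.5). Pparg was seen in 2.39% and 1.74% of FAPs, and after thinning in only 5 and 1 cells, so over all FAPs its level could not be told from that of lymphocytes (0 UMIs, which allows up to 1.99 CPM in quadriceps) at this depth. Smooth muscle cells of quadriceps had 72 Pparg UMIs, or 4.36 CPM, which was 2.0-fold the level in FAPs (1.39 to 2.87).

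The comparison of the muscles asked whether FAPs of the diaphragm and of the limb carry these genes at the same level. Cebpb, Lpl and Cebpa were higher in diaphragm FAPs, and Plin2, Fabp4 and Cd36 were higher in quadriceps FAPs. Cebpb was 1.76-fold higher in diaphragm (1.71 to 1.81), Lpl 1.42-fold (1.39 to 1.45) and Cebpa 1.42-fold (1.24 to 1.63). Plin2 was 1.58-fold higher in quadriceps (1.46 to 1.72), Fabp4 5.02-fold (3.36 to 7.76) and Cd36 31.3-fold (5.23 to 1274, from 32 UMIs against 1). For Zfp423 the ratio of diaphragm to quadriceps was 1.02 (0.903 to 1.16), and for Pparg the ratio of quadriceps to diaphragm was 1.45 (0.952 to 2.24), so that both intervals took in 1.

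The shifts were read against all genes at the same level. Among 3309 genes with at least 50 CPM in FAPs of the higher tissue, 3.72% were at least 2-fold higher in diaphragm and 3.11% in quadriceps, and none of the 3 listed genes at that level (Lpl, Cebpb, Plin2) passed 2-fold in either direction. Their log2 ratios of diaphragm to quadriceps were 0.51, 0.81 and -0.66, beside a median of -0.10 over all these genes. Among 8727 genes with at least 10 CPM, 2.88% were 2-fold higher in diaphragm and 3.72% in quadriceps, and of the 5 listed genes at that level 0 passed. Among 12736 genes with at least 1 CPM, 4.58% were 2-fold higher in diaphragm and 7.29% in quadriceps, and of the 8 listed genes at that level 2 were 2-fold higher in quadriceps, Fabp4 and Cd36.

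**Figure D2:**
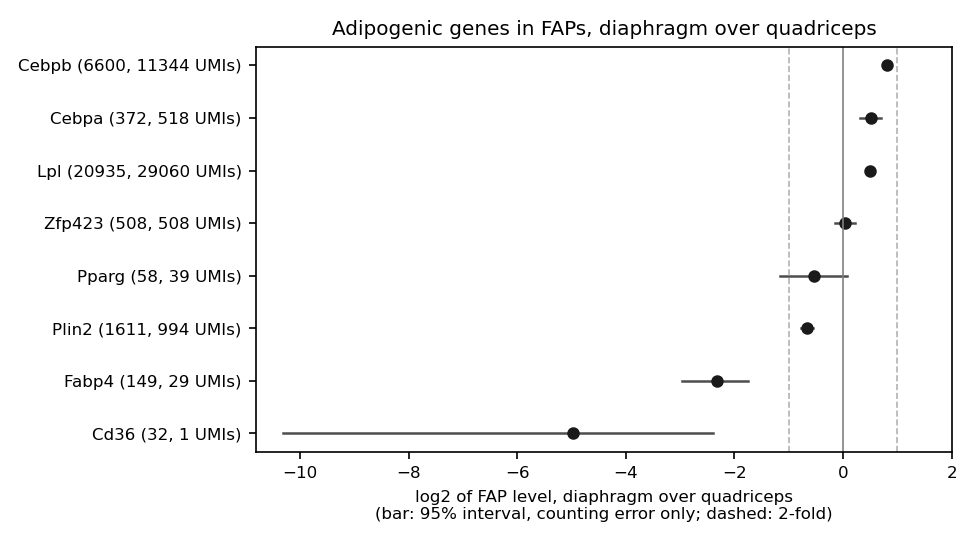
Log2 ratio of the level in diaphragm FAPs over quadriceps FAPs for the 8 genes with at least 20 UMIs over both libraries, with UMIs in quadriceps and diaphragm in brackets and 95% counting intervals as bars. Only Fabp4 (-2.33) and Cd36 (-4.97) lie beyond the dashed 2-fold lines, and the intervals of Zfp423 and Pparg cross 0.

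Other cells' RNA moved with the Fabp4 and Cd36 differences. Quadriceps FAPs held more RNA of the smooth muscle list, with Acta2 at 932 CPM against 12.5 CPM in diaphragm FAPs, and 55 of them formed a subcluster led by Tagln, Acta2 and Myh11 with 34349 CPM over the smooth muscle list. These 55 cells held 29 of the 149 Fabp4 UMIs and 13 of the 32 Cd36 UMIs of quadriceps FAPs. Without the 97 quadriceps and 9 diaphragm FAPs that held at least 20 UMIs of other classes' markers, Fabp4 was at 4.77 and 1.13 CPM (log2 ratio -2.08) and Cd36 at 17 UMIs and 1. Without FAPs that held at least 2 such UMIs, which left 430 and 1318 cells, the log2 ratio of Fabp4 was -0.35. The part of these cells' RNA in the result was not tested further.

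Fabp4 also sat in few cells. In quadriceps 7 FAPs with at least 4 Fabp4 UMIs held 68 of the 149 UMIs (45.6%). The highest had 22 Fabp4 UMIs with 5 UMIs of the endothelial list, and 2 others carried 1106 and 520 UMIs of the smooth muscle list. No endothelial UMI was present in 4 of the 7, which were the cell with 520 smooth muscle UMIs and 3 cells of the C4b Gdf10 subcluster described below. One of these 3 held 5 Fabp4, 1 Pparg, 3 Cd36, 54 Lpl and 3 Plin2 UMIs.

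The Cebpb difference moved with immediate early genes, which cells switch on within minutes of a stimulus. Fos, the prototype of these genes, had 264 CPM in quadriceps FAPs and 2694 CPM in diaphragm FAPs. In FAPs with no Fos UMI (1491 in quadriceps, 213 in diaphragm) Cebpb was at 218 CPM in both tissues (211 to 226 and 199 to 238). It was higher with each step of Fos UMIs, at 246 and 265 CPM for 1 to 4 UMIs, 318 and 406 CPM for 5 to 19, and 457 and 522 CPM for 20 or more. The last step held 3.93% of quadriceps FAPs and 53.2% of diaphragm FAPs. Over single FAPs the correlation of Cebpb with Junb was 0.23 in quadriceps (2339 cells) and 0.46 in diaphragm (2010 cells), within 1 library each. With Fos it was lower, at 0.18 and 0.29, and with Atf3, another immediate early gene, 0.07 and 0.30.

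**Figure D3:**
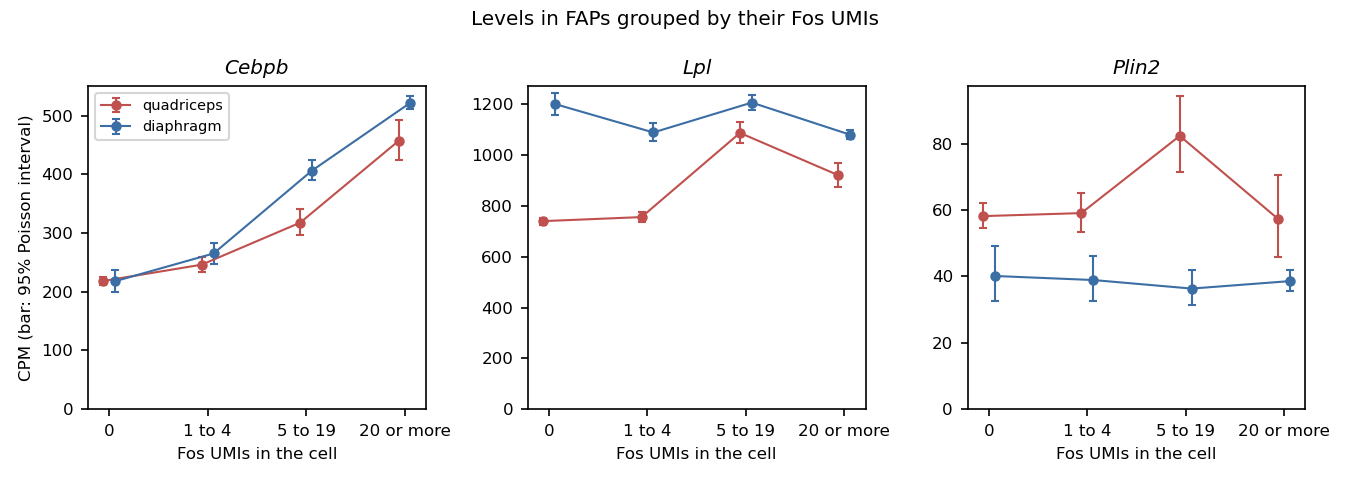
Levels of Cebpb, Lpl and Plin2 (CPM, 95% Poisson intervals) in FAPs grouped by the number of Fos UMIs in the cell, quadriceps in red and diaphragm in blue. Cebpb starts at 218 CPM in both tissues and is higher with more Fos UMIs, while Lpl and Plin2 differ between the tissues also in cells without Fos.

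Lpl and Plin2 differed between the tissues also without Fos. In FAPs without a Fos UMI, Lpl was at 740 CPM in quadriceps (727 to 754) and 1202 CPM in diaphragm (1158 to 1247), and Plin2 at 58.2 CPM (54.5 to 62.0) and 40.1 CPM (32.5 to 49). In diaphragm Lpl was between 1081 and 1207 CPM over the 4 groups. In quadriceps it was higher in cells with more Fos, at 740, 756, 1088 and 921 CPM from the lowest to the highest Fos group, and Plin2 there was at 58.2, 59.1, 82.3 and 57.3 CPM. The plot of levels by Fos UMIs shows these values side by side.

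FAPs were not uniform in these genes. Clustered without the listed genes, the other lipid and adipogenic genes and the genes used for naming, FAPs formed 10 subclusters, which are called here by leading genes. Of these, 3 were named FBN1+ and 4 LUM+, after the FAP subtypes that the study marks with fibrillin 1 and lumican, from the naming genes of each side. The FBN1+ side held 864 FAPs in quadriceps and 588 in diaphragm, and the LUM+ side 799 and 1111. Of these LUM+ FAPs, 74 and 521 were of the Thbs4 Fmod subcluster, so the makeup of the LUM+ side differed between the muscles. This subcluster was also led by Tnmd, and its tenocyte markers summed to 8122 and 4345 CPM, against 454 and 1655 CPM over all FAPs. It was named LUM+ with 3 LUM+ and 2 FBN1+ naming genes above the other FAPs.

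Lpl was highest in LUM+ subclusters. In quadriceps the Cxcl14 Hsd11b1 subcluster had 1719 CPM and the C4b Gdf10 subcluster 1549 CPM, against 291 CPM in the Ccl2 Fam167a subcluster, 354 CPM in the Dmkn Sbsn subcluster and 533 CPM in the Aldh1a2 Thbs1 subcluster, which were the FBN1+ ones. In diaphragm the C4b Gdf10 subcluster had 1553 CPM, the Thbs4 Fmod subcluster 1381 CPM and the Cxcl14 Hsd11b1 subcluster 1320 CPM, against 538 CPM in Ccl2 Fam167a and 807 CPM in Aldh1a2 Thbs1. LUM+ FAPs as a whole had 3.77-fold the Lpl of FBN1+ FAPs in quadriceps (3.64 to 3.91) and 1.93-fold in diaphragm (1.87 to 1.98). The LUM+ subclusters did not all follow, since the Apod Angptl7 subcluster had 623 and 556 CPM and Thbs4 Fmod only 444 CPM in quadriceps. Of the subclusters named neither FBN1+ nor LUM+, Slpi Has1 had 1069 and 957 CPM and Ptn Prg4 675 and 997 CPM, above these values. The one led by Tagln and Acta2 had 413 CPM in quadriceps. Over single cells Lpl had a correlation of -0.38 with Fbn1 and 0.38 with Lum in quadriceps (2339 cells), and of -0.30 and 0.26 in diaphragm (2010 cells).

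**Figure D4:**
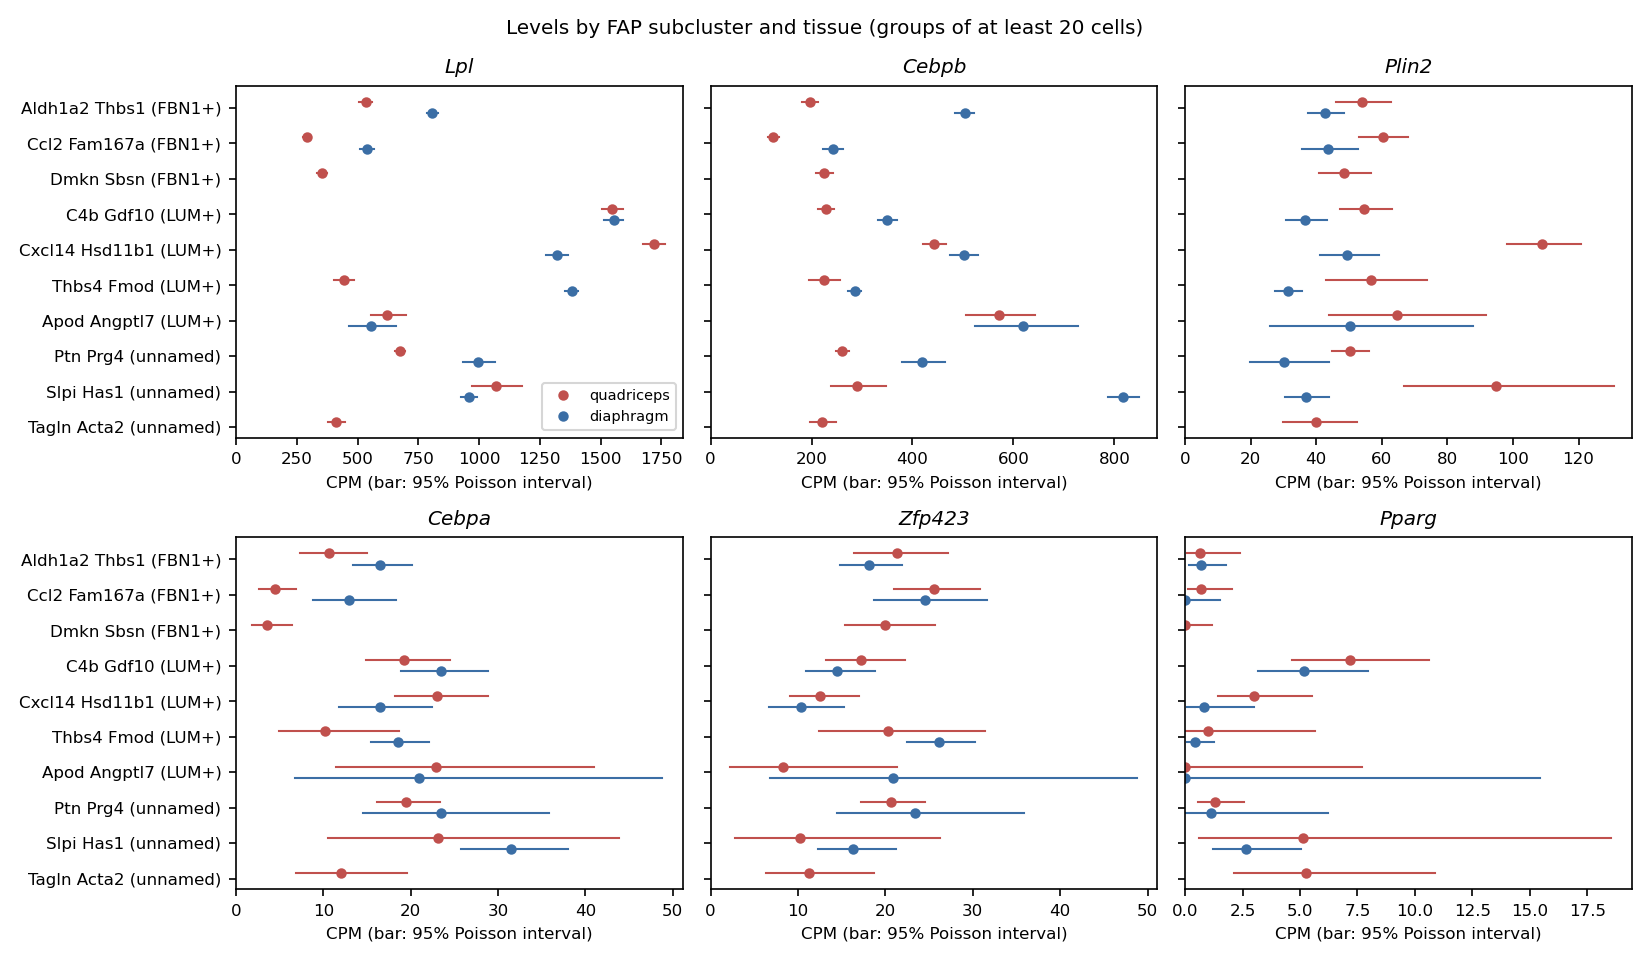
Levels (CPM, 95% Poisson intervals) of Lpl, Cebpb, Plin2, Cebpa, Zfp423 and Pparg in each FAP subcluster of at least 20 cells, quadriceps in red and diaphragm in blue, with the subtype name in brackets. Pparg is at or under 0.698 CPM in the FBN1+ subclusters, and Lpl and Pparg are both high in C4b Gdf10, where Lpl was at 1549 and 1553 CPM in the 2 tissues.

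A large share of the Pparg UMIs lay in the C4b Gdf10 subcluster, which was singled out after its values were seen. This subcluster held 25 of the 58 Pparg UMIs in quadriceps, with 13.7% of FAPs, and 20 of 39 in diaphragm, with 17.4% of FAPs. Its level was 7.19 CPM in quadriceps (4.65 to 10.6) and 5.16 CPM in diaphragm (3.15 to 7.97). The ratios to all other FAPs were 5.03 (2.87 to 8.71) and 6.00 (3.04 to 11.9). Among 12096 genes that reached 1 CPM in this subcluster or in the other FAPs of each tissue, 1% were at least 2-fold higher there in both, and Pparg was the only listed gene that did so. Lpl was 2.30-fold higher in quadriceps (2.23 to 2.37) and 1.49-fold in diaphragm (1.45 to 1.53), and Fabp4 3.56-fold (2.49 to 5.03) and 1.49-fold (0.495 to 3.76). In quadriceps the level was above the 1.99 CPM that 0 UMIs in lymphocytes allows, but in diaphragm, where 0 UMIs in 107 lymphocytes allow up to 4.97 CPM, the interval took in that limit. Other subclusters with Pparg in quadriceps were the one led by Tagln, Acta2 and Myh11 (5.28 CPM, 7 UMIs), Slpi Has1 (5.13 CPM, 2 UMIs) and Cxcl14 Hsd11b1 (2.99 CPM, 10 UMIs), with intervals that overlapped that of C4b Gdf10, and in diaphragm Slpi Has1 had 2.67 CPM from 9 UMIs (1.22 to 5.07).

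The 23 quadriceps cells of this subcluster with a Pparg UMI had more of the lipid genes than the 297 without one. Lpl was at 3214 against 1412 CPM, Plin2 at 181 against 44.2 CPM, and a Fabp4 UMI was present in 6 of 23 (26.1%, 10.2 to 48.4) against 16 of 297 (5.39%, 3.11 to 8.60). Median depths were 12411 and 10722 UMIs. In diaphragm the 16 cells with Pparg had Lpl at 2037 against 1526 CPM and Plin2 at 38.7 against 36.5 CPM, and none held Fabp4, which allows up to 18.8%. Over all FAPs of quadriceps, 9 of 56 Pparg-positive cells (16.1%) and 65 of 2283 others (2.85%) held Fabp4. Outside the subcluster, quadriceps FAPs with and without Pparg had 991 and 667 CPM of Lpl and 46.3 and 61.9 CPM of Plin2, and diaphragm FAPs 1003 and 1043 CPM of Lpl.

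Between the subtypes, only Pparg among the listed genes with at least 20 UMIs in the subtypes was at least 2-fold different in the same direction in both tissues, with 5 UMIs in FBN1+ and 36 in LUM+ FAPs of quadriceps and 4 and 25 in diaphragm. The LUM+ level was 9.04-fold that of FBN1+ in quadriceps (3.54 to 29.5) and 3.8-fold in diaphragm (1.31 to 15). Among 2994 genes with at least 50 CPM, 1.74% were 2-fold higher in LUM+ and 1.8% in FBN1+ FAPs in both tissues, and neither Lpl nor Cebpb was. Among 8224 genes with at least 10 CPM these shares were 1.76% and 1.35%, and Cebpa, Zfp423 and Plin2 did not pass either. Among 12053 genes with at least 1 CPM, the level of Pparg, they were 4.02% and 2.19%, and 1 of the 6 listed genes at that level passed. The Pparg result rested on how the cells were named. With FAPs divided only by whether they held more Lum or more Fbn1 UMIs, the ratio was 4.0 in quadriceps (1.99 to 8.91) and 1.65 in diaphragm (0.680 to 4.85), and with at most 5% mitochondrial UMIs FBN1+ FAPs were the higher in diaphragm (log2 1.66).

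**Figure D5:**
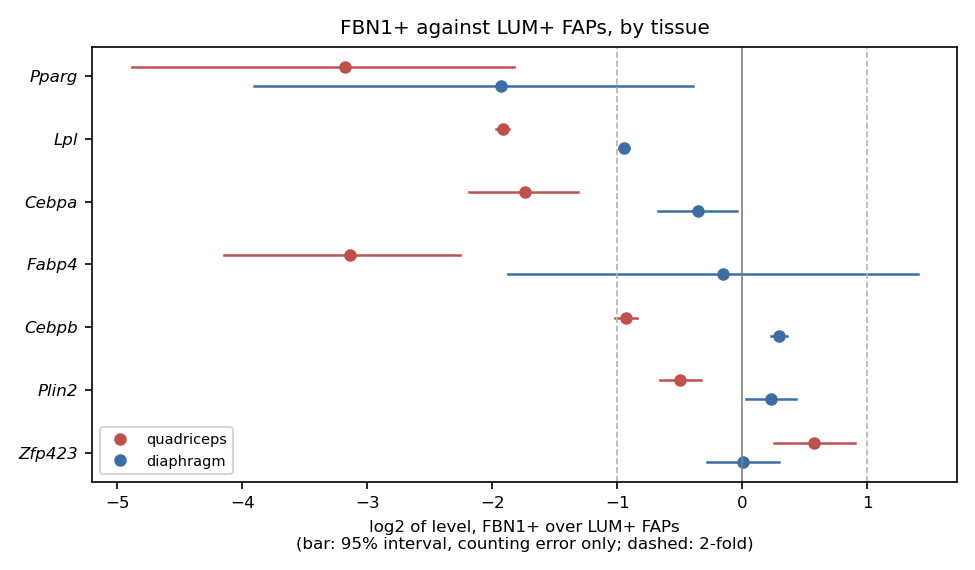
Log2 ratio of the level in FBN1+ over LUM+ FAPs for 7 genes, quadriceps in red and diaphragm in blue, with 95% counting intervals. Pparg and Lpl lie left of 0 in both tissues, whereas Cebpb is at -0.93 in quadriceps and 0.29 in diaphragm, and Plin2 at -0.50 and 0.23.

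For the other genes the ratios between subtypes were larger in quadriceps. Cebpa was 3.34-fold higher in LUM+ FAPs there (2.48 to 4.55) and 1.28-fold in diaphragm (1.03 to 1.59). The lowest Cebpa levels were 3.55 CPM in the Dmkn Sbsn subcluster and 4.42 CPM in the Ccl2 Fam167a subcluster of quadriceps, and the highest was 31.4 CPM in the Slpi Has1 subcluster of diaphragm. Fabp4 was 8.79-fold higher in LUM+ FAPs of quadriceps (4.78 to 17.7), where it had 84 against 12 UMIs, and 1.11-fold in diaphragm (0.378 to 3.67). Of the 84 UMIs, 22 came from the 1 cell with 5 endothelial UMIs, and with at most 5% mitochondrial UMIs the log2 ratio of FBN1+ over LUM+ in quadriceps went from -3.14 to -0.53. Zfp423 went the other way in quadriceps, with 22.7 CPM in FBN1+ and 15.2 CPM in LUM+ FAPs, and in diaphragm the log2 ratio of FBN1+ over LUM+ was 0.01 (-0.28 to 0.30). The direction of Zfp423 in quadriceps and of Cebpa in diaphragm was not kept under all alternative settings, as given below.

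Cebpb was highest in the Slpi Has1 subcluster of diaphragm, at 817 CPM (787 or more), whose immediate early list summed to 20136 CPM, and in the Apod Angptl7 subcluster, at 571 CPM in quadriceps and 619 CPM in diaphragm. The Ccl2 Fam167a subcluster had the least, at 125 and 242 CPM. Plin2 peaked in the Cxcl14 Hsd11b1 subcluster of quadriceps at 109 CPM, 2.03-fold the other FAPs there (1.80 to 2.28), and was at 49.5 CPM in the same subcluster of diaphragm.

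Since the muscles differed in the makeup of their FAPs, the tissues were also compared within each of 8 subclusters present in both. Cebpb was higher in diaphragm in 7 of 8, by up to 2.82-fold (2.34 to 3.44) in Slpi Has1, and in Apod Angptl7 the interval took in 1. Plin2 was higher in quadriceps in 7 of 8, by up to 2.58-fold (1.74 to 3.75), also in Slpi Has1. Both of these largest ratios rested on the 29 quadriceps cells of Slpi Has1. Those cells had 579 CPM of the myeloid markers, against 22.0 CPM over all quadriceps FAPs. In Cxcl14 Hsd11b1 the Plin2 ratio was 2.20 (1.79 to 2.73). For Lpl the direction was mixed. It was higher in diaphragm in 4, with 3.11-fold (2.83 to 3.43) in Thbs4 Fmod. In 2 it was higher in quadriceps, Cxcl14 Hsd11b1 by 1.30-fold (1.25 to 1.36) and Slpi Has1 by 1.12-fold (1.01 to 1.24). In C4b Gdf10 the Lpl ratio was 1.00 (0.967 to 1.04). Cebpa was higher in diaphragm in 2 of 8, both of the FBN1+ side, and Zfp423 in 0 of 7, with no interval leaving 1 out. The rarer genes could be compared in fewer subclusters. Fabp4 was higher in quadriceps in 2 of 5, by 9.65-fold (4.15 to 27.5) in C4b Gdf10 and at 9.28 against 0 CPM in Cxcl14 Hsd11b1. In the latter, 22 of 31 quadriceps UMIs lay in 1 cell. The other 3 intervals took in 1. Cd36 was compared only in C4b Gdf10, with 13.4-fold more in quadriceps (1.98 to 571). For Pparg all 3 intervals took in 1.

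Of 23 other genes of the same pathways with at least 50 CPM, 3 (13.0%) passed 2-fold between the muscles, beside 6.83% of all genes at that level. Of 17 further regulators of fat cell formation, 6 had at least 50 CPM, and of these only Bmp4, a ligand that commits stem cells to the fat lineage, passed 2-fold, with 94.2 CPM in quadriceps and 197 CPM in diaphragm. Of 15 inhibitors 7 reached 50 CPM, and only Ddit3, a stress-induced C/EBP factor that blocks the others, passed, with 31.4 and 70.8 CPM. Of 14 further fatty acid uptake genes 4 reached that level, and only Cav1, which encodes the caveolae protein caveolin, passed, with 145 CPM in quadriceps and 33.4 CPM in diaphragm (130 and 31.5 CPM without the FAPs that held at least 20 UMIs of other classes' markers). None of 3 lipid droplet genes and 3 lipogenic genes at that level passed. Median log2 ratios of diaphragm to quadriceps were taken over only these list genes with at least 50 CPM. They were 0.11 for the 6 regulators, 0.29 for the 7 inhibitors and -0.67 for the 4 uptake genes. The 3 droplet genes had 0.01 and the 3 lipogenic genes -0.49, beside -0.10 over all genes at that level. Single uptake genes ran from -2.12 (Cav1) to 0.41 (Lrp1). For the subtypes, when 50 CPM was required of the higher one in each tissue, only Mgll, which encodes monoacylglycerol lipase, was 2-fold different in both, higher in FBN1+ FAPs at 132 against 27.5 CPM in quadriceps and 58.3 against 20.8 CPM in diaphragm. A further rule set no limit on CPM but asked for at least 20 UMIs summed over both tissues. By it 2 list genes (Mgll and Wnt10b) were 2-fold higher in FBN1+ FAPs of both tissues. In LUM+ FAPs 6 were (Dlk1, Fgf10, Klf5, Ppargc1a, Slc27a1 and Thrsp), named here after their values were seen. The share of all genes past this rule was not taken. The shares above for genes with at least 1 CPM, 2.19% for FBN1+ and 4.02% for LUM+, are of a different rule. The counts of 2 and 6 therefore cannot be set against them. In diaphragm Thrsp rested on 1 UMI in LUM+ and 0 in FBN1+ FAPs, and Wnt10b on 11 in FBN1+ and 1 in LUM+. Dlk1, an inhibitor of fat cell formation, had 0 UMIs in FBN1+ and 422 in LUM+ FAPs of quadriceps, and 16 and 234 in diaphragm.

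Across the 18 subcluster and tissue groups of at least 20 cells, the genes with the most similar levels, by Pearson correlation of log2(CPM + 1) over 10052 genes, were taken for 3 members. They share cells and library with the gene itself, so the values are descriptive. For Pparg they were Aoc3 (0.83), Trafd1 (0.81), Gdf10 (0.78), Acvr2a (0.76) and Bmper (0.76). Pparg itself had only 58 and 39 UMIs in FAPs, under the 100 per tissue asked of the compared genes. Gdf10 is a leading gene of the subcluster that held a large share of the Pparg UMIs. For Cebpa they were Klf9 (0.89), Fmo1 (0.85), Irs2 (0.84), Lsamp (0.81) and Igf1 (0.81). For Lpl they were Sepp1 (0.87), Il17d (0.82), Rsrp1 (0.82), Il11ra1 (0.82) and Tnfrsf1a (0.82).

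The genes lie apart in the genome, in GENCODE M21 on GRCm38. Pparg spans 115360951 to 115490399 on chromosome 6 and Cebpa 35119293 to 35121928 on chromosome 7. Cebpb spans 167688915 to 167690418 on chromosome 2. Lpl, at 68880491 to 68907448, and Zfp423, at 87661810 to 87959595, are both on chromosome 8.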

How the data were processed

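Per the labels and the methods, the authors digested the muscles with collagenase and dispase, collected cells over a density gradient, sorted viable cells by light scatter, encapsulated them with a 10x Chromium kit and made the deposited UMI counts with Cell Ranger 3.0.0 on mm10 (GRCm38), with Seurat also named. The deposited values were raw UMI counts per gene and cell barcode, 50854519 in quadriceps (5159 barcodes) and 28545242 in diaphragm (2499 barcodes). The 2 libraries shared 5 barcodes. FAPs had a median of 10782 and 12575.5 UMIs.

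All barcodes were used, with no limit on mitochondrial UMIs, since the rule names none (570 and 441 FAPs had over 5%), and no doublet caller was run. Counts were summed per class and scaled to CPM, with exact Poisson intervals for CPM, exact binomial (Clopper-Pearson) intervals for shares and exact conditional binomial intervals for ratios. Where no UMI was counted, the limit stated is the one that 3 counts would give. Shares were also taken after thinning each cell to 1000 UMIs. Near the Dcn threshold, 33 and 9 barcodes with Pdgfra had 40 to 49 Dcn UMIs and 27 and 10 had 50 to 59. FAPs of both libraries were clustered together on 2000 variable genes without 102 listed genes, scaled within library, over 10 principal components, 20 neighbours and Leiden resolution 0.5. A subcluster was FBN1+ or LUM+ when at least 3 naming genes of that side and fewer of the other were above all other FAPs. Genes were named in the text by a rule: all 10 members, the genes of the pathway lists past 2-fold between tissues or subtypes at 50 CPM, the mature fat cell list as counts, and the 5 genes most like Pparg, Cebpa and Lpl. The C4b Gdf10 subcluster, the Fos groups, the FAPs with at least 4 Fabp4 UMIs and Slc2a4, Acvr1c and Acta2 were singled out after values were seen. The members and lists were chosen with earlier results of these data known. Python 3.11.15, numpy 2.4.6, scipy 1.17.1, pandas 2.3.3, igraph 0.11.9 and leidenalg 0.10.2 were used, and the scripts were tested on simulated data.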

Additional observations from a re-analysis of the deposited data

Results flagged for a closer look

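Cebpb and Plin2 pointed in opposite directions between FBN1+ and LUM+ FAPs of the 2 muscles. The log2 ratio of FBN1+ over LUM+ was -0.93 in quadriceps and 0.29 in diaphragm for Cebpb, and -0.50 and 0.23 for Plin2. With 1 library per tissue the difference was not tested. Without the Thbs4-led subcluster the diaphragm ratios were 0.04 and 0.03, and with FAPs divided by the larger of their Fbn1 and Lum UMIs they were 0.25 and 0.13. The opposite direction of Cebpb was lost with at most 5% mitochondrial UMIs (-0.28 in diaphragm), a Dcn threshold of 30 (-0.028) or 100 (-0.53) and a clustering resolution of 1.0 (-0.63). That of Plin2 was lost with limits on UMIs per barcode (-0.036).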

How the results depend on the processing

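No paired analysis was possible because each tissue had 1 library, and for the same reason no replicate could be left out. The 2 genes past 2-fold between tissues became 1 with at most 5% mitochondrial UMIs, 1 in FAPs with no Fos UMI, 0 without FAPs with 2 or more UMIs of other classes' markers and 1 without those with 20 or more (chosen after seeing the data), since Cd36 then had under 20 UMIs, and in the count of 0 the log2 ratio of Fabp4 was -0.35. The 1 gene past 2-fold between subtypes became 0 with at most 5% mitochondrial UMIs, limits on UMIs per barcode, a Dcn threshold of 30, cells thinned to 1000 UMIs, no FAPs with 2 or more UMIs of other classes, genes scaled over both libraries, or subtypes by the larger of Fbn1 and Lum UMIs (chosen after seeing the data), and 3 with a Dcn threshold of 100; the cause was not tested. After thinning, Pparg was seen in only 5 and 1 FAPs, under the 20 UMIs asked of a counted gene, so it could not pass there. The log2 ratio of FBN1+ over LUM+ for Pparg turned in diaphragm to 1.66 (mitochondrial limit), 0.96 (UMI limits), 1.46 (Dcn 30) and 0.13 (scaling over both libraries), and in quadriceps to 0.12 (no FAPs with 2 or more UMIs of other classes). That of Cd36 in quadriceps turned to 0.095 (UMI limits) and 0.37 (Dcn 30). For Zfp423 in quadriceps this ratio ranged from -0.79 to 0.69 over 11 alternatives. In diaphragm it ranged from -0.84 to 0.49 for Cebpa and from -1.34 to 1.35 for Fabp4, so that these directions changed too. Of 69 ratios between tissues under alternatives 63 kept their direction, and of 156 between subtypes 136 did. Lpl kept it throughout, at 0.41 to 0.70 between tissues, -2.16 to -1.52 between subtypes in quadriceps and -1.26 to -0.67 in diaphragm. Cebpb between tissues ranged from 0.00 (no Fos UMI) to 0.92. Pparg, Fabp4, Cd36 and Adipoq had under 150 UMIs per library, which limits what could be seen of them.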

Other observations

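The lipid and Wnt genes below lay outside the list, differed widely between FAPs of the muscles and were chosen after their values were seen. Plin4, a perilipin of lipid droplets, had 147 UMIs in quadriceps and 4 in diaphragm (35.9-fold, 13.7 to 134). Quadriceps smooth muscle cells had 125 CPM of it, and 32 of the 147 UMIs remained without the FAPs that held at least 20 UMIs of other classes' markers. Thrsp, a lipogenic regulator, had 66 and 2 UMIs (32.3-fold, 8.58 to 272), and 64 and 2 without those FAPs. In quadriceps Thrsp was at 2.49 CPM in FAPs (1.92 to 3.16), under the 56.4 CPM of endothelial cells and the 4.12 CPM of smooth muscle cells. Lymphocytes there had 0 CPM (0 to 2.45), an interval that overlapped that of FAPs. Fabp5, an epidermal fatty acid binding protein that fat cells also make, was higher in diaphragm instead, at 25.0 against 6.29 CPM (3.98-fold, 3.35 to 4.74). Lymphocytes had 18.2 CPM of Fabp5 in diaphragm (9.10 to 32.6) and 5.32 CPM in quadriceps (2.30 to 10.5). Both intervals took in the level of FAPs, so that Fabp5 in FAPs could not be told from free RNA. Endothelial cells had 147 CPM in quadriceps (26 UMIs) and 61.7 CPM in diaphragm (2 UMIs). Wnt10b, a Wnt ligand that holds back fat cell formation, had 105 UMIs in quadriceps and 26 in diaphragm (3.95-fold, 2.55 to 6.32).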
